A study of Mus musculus with 2 samples.

Results

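Sterol synthesis was described here through 28 genes, of 55536 annotated genes in the deposited tables, in the gastrocnemius, a fast calf muscle, of suckling mice. The members were taken by name as the enzymes that build cholesterol, the regulators that sense it and the proteins that store or move it, and not by their values. All 28 were found in the tables, and all 28 had enough counts to be tested.

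The mice were female B6CASTF1/J animals of 14 days, F1 crosses between C57BL/6J and CAST/EiJ mice, with no treatment or engineered allele named. Total RNA was sequenced as 2 libraries, replicates 1 and 2 of the same group, from 300 ng of RNA each, with added spike-in RNAs. There was no second condition, so levels within the muscle and the difference between the libraries are what these data give. The library descriptions both name 3 females, whereas the tissue description of replicate 2 names a female in the singular, so it was unclear whether each library holds 1 animal or a pool. P-values and intervals below therefore compare these libraries and cover counting error only, and the spread may be technical.

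Annotated genes received 35592003 counts in replicate 1 and 42105856 in replicate 2. Fast muscle fibre markers summed to 99700 and 106000 TPM, a length-corrected level scaled to the same sum in each library, while 5 hepatocyte markers summed to 1.68 and 0.26 TPM. The common coefficient of variation between the libraries was 15.9%. The tissue is a mixture of cells, so more cells of a type and more RNA per cell cannot be told apart in any difference below.

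Cells build cholesterol from acetyl-CoA in a long route. The mevalonate steps make isoprene units, prenyltransferases join them into chains, squalene is folded into lanosterol, and lanosterol is trimmed to cholesterol. Side branches of the route supply the prenyl anchors of small GTPases, ubiquinone and dolichol. The route is governed by SREBP transcription factors, which are made as membrane proteins, held in the endoplasmic reticulum by SCAP and INSIG when sterols are plentiful, and carried to the Golgi for cleavage when sterols fall. The freed factor binds sterol response elements in promoters, commonly beside sites for the factors NF-Y and Sp1. In muscle, cholesterol is a structural lipid of the surface membrane and its transverse tubules.

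The promoters of 3 members are shown as examples of how the sterol response element sits in the route's most abundant enzyme, in a lanosterol enzyme and in a regulator. All 3 were higher in replicate 2, and they were chosen with that known from 10 members with a match, which also include Acat2 and Hsd17b7, with no difference that passed the test between the libraries, and Insig2, which was lower in replicate 2. They come from RefSeq (GRCm38.p6), read 5′ to 3′ on the gene's strand, and are limited to bases upstream of every annotated exon. Capitals mark the closest match to the element, spelled TCACNCCAC. It was exact in Hmgcs1, where a further match with 1 mismatch, 220 bases before the start, is left in lower case. The Hmgcs1 stretch lies at chr13:119690101-119690350 on the plus strand. The element had 1 mismatch in Cyp51, at chr5:4104747-4104947 on the minus strand, and in Srebf2, at chr15:82147019-82147180 on the plus strand.
Hmgcs1: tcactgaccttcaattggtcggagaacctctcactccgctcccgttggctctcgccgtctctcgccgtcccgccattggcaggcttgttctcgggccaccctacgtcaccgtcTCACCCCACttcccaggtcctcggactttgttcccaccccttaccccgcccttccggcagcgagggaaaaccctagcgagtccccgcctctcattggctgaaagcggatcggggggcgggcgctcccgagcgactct
Cyp51: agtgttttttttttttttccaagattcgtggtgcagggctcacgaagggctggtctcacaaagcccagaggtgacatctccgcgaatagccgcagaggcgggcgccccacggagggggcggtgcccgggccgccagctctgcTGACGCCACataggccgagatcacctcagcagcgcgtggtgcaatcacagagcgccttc
Srebf2: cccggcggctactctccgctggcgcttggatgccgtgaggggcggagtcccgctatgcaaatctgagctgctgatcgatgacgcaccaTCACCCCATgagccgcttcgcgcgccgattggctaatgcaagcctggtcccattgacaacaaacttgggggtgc

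The marked matches began 137 bases before the RefSeq start of Hmgcs1, 108 before that of Cyp51 and 162 before that of Srebf2. Windows of 300 bases, from 250 before to 50 after a start, were found for 23 members, which had 31 windows in all. Fdft1, Fdps, Sqle, Npc1 and Stard4 had none. The exact element, searched on both strands, lay in 1 of the 31 windows (3.23%), that of Hmgcs1. It lay in 1.24% of all 32851 windows and 1.15% of the windows of tested genes. With at most 1 mismatch it lay in 10 of 31 (32.3%), beside 24.2% of all windows and 25.3% of those of tested genes. The NF-Y pentamer CCAAT lay in 22 of 31 (71%), beside 37.4% of all windows and 37.3% of the windows of tested genes. The Sp1 hexamer GGGCGG lay in 25 of 31 (80.6%), beside 35.7% of all windows and 60.6% of those of tested genes. Several members have more than 1 window and some of these overlap, and a match is only a match of letters. Windows were included even where transcripts starting within 100 bases held 0 counts in both libraries. The only element match of Dhcr7, the only CCAAT of Pmvk, every CCAAT of Insig2, and every CCAAT and GGGCGG of Idi1 lay in such windows. For Idi1 the RefSeq start was at 8885606, whereas Idi1-201, which held nearly all of its counts, was annotated from 8885501.

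Most of the pathway was present at a low level. Of the 28 members, 27 reached 1 TPM in both libraries, the exception being Sqle. Together they summed to 161 TPM in replicate 1 and 208 in replicate 2 (184 ± 32.7, SD, n = 2). The 19 enzymes of the route, from Acat2 to Dhcr7, gave 87 and 119 TPM (103 ± 22.7, SD, n = 2). Insig2, an endoplasmic reticulum anchor of SCAP, was highest at 21.84 and 22.08 TPM, and Hmgcs1, which condenses acetoacetyl-CoA with acetyl-CoA, followed at 15.31 and 24.01 TPM. Lowest in the mean were Hsd17b7, a keto-reductase of sterol demethylation, at 1.1 and 1.4 TPM, and Sqle, squalene epoxidase, at 0.64 and 2.63 TPM.

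No neighbours in the order of mean levels were told apart, 0 of 27 pairs, by the deposited TPM intervals in both libraries. Over all 378 pairs of members, 251 were told apart. The interval of Insig2 lay above those of 26 members, all but Hmgcs1, and that of Hmgcs1 lay above those of 25. Fdft1 and Fdps each lay above 22 members. These intervals surround the posterior mean of the level and need not hold the TPM value.

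**Figure D1:**
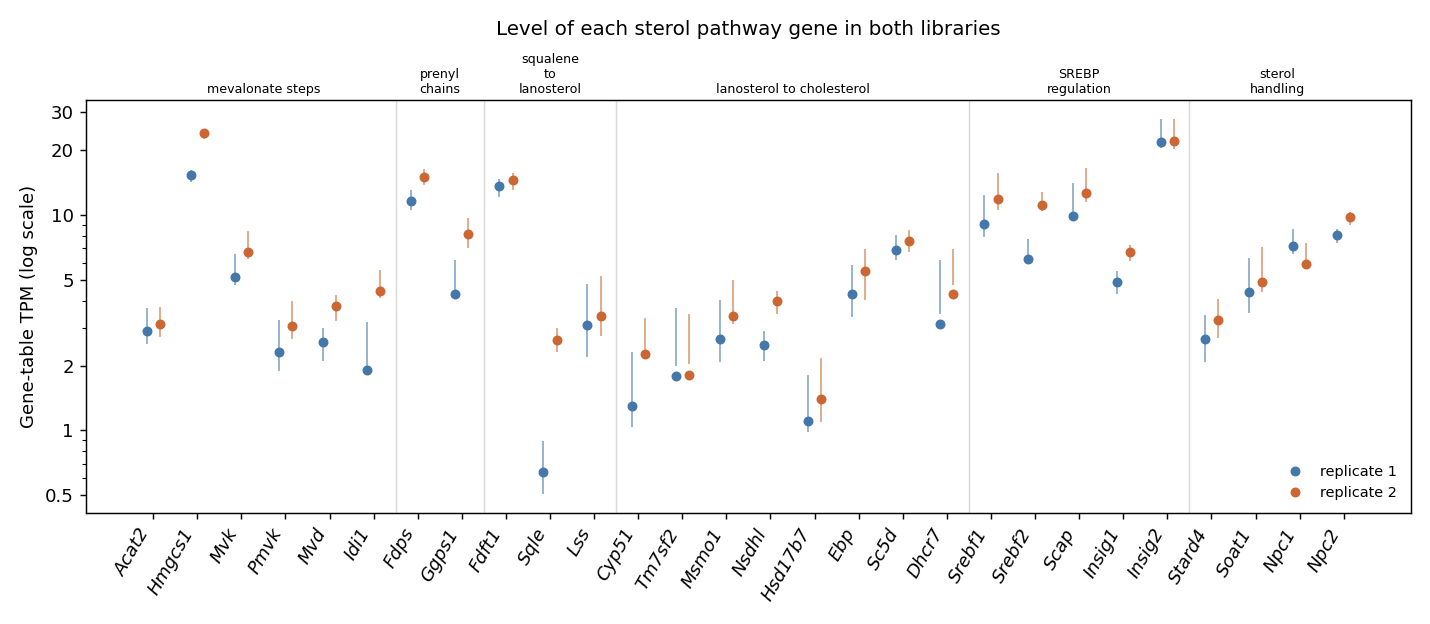
TPM of each of the 28 members in replicate 1 (blue) and replicate 2 (orange) on a log axis, ordered by step of the pathway, with vertical lines for the deposited intervals. Insig2 and Hmgcs1 stand highest, Sqle in replicate 1 is the only point under 1 TPM, and Npc1 is the only member with a lower TPM in replicate 2.

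The libraries differed along the route mostly in the same direction. TPM was higher in replicate 2 for 27 of 28 members, beside 71% of all tested genes, so TPM itself was shifted between the libraries. Counts were therefore compared as log2 ratios of replicate 2 over replicate 1 after TMM scaling, which takes most genes as equal between libraries and put the median of all 15734 tested genes at 0.0. On that scale 20 of 28 members lay above 0, beside 50.6% of tested genes. The median was 0.24 over the members and 0.29 over the 19 route enzymes, of which 14 lay above 0.

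By a two-sided exact binomial test adjusted over all tested genes, 10 members were higher in replicate 2, which is 35.7% of them, beside 14.8% of all tested genes. Among the 9851 genes whose summed counts fell within the members' range, that share was 16%. Of the 10, 8 were route enzymes, and the other 2 were Srebf2 and Insig1. Insig2 and Npc1 were lower in replicate 2, 7.14% of the members, beside 16.7% of all tested genes. Only Sqle and Cyp51 also passed 2-fold, again 7.14%, beside 3.4% of tested genes in either direction, 1.76% in the upward direction and 0.985% upward within the members' count range. At 1.5-fold, 5 members passed, beside 8.07% of tested genes in either direction.

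The split of these calls moved with the scaling. Scaling by total counts gave 18 members higher and 0 lower, beside 29.8% and 8.84% of all tested genes. Scaling by the spike-ins gave 21 higher and 0 lower, beside 43.8% and 6.05%. Those scalings moved the median of all genes to 0.14 and 0.23. Under either, 26 of 28 members lay above 0, as did 11021 of all 15734 tested genes under total counts and 12526 under spike-ins. Acat2, Fdft1, Tm7sf2, Hsd17b7, Sc5d and Scap, which lay just below 0 under TMM and did not pass there, lay above it.

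**Figure D2:**
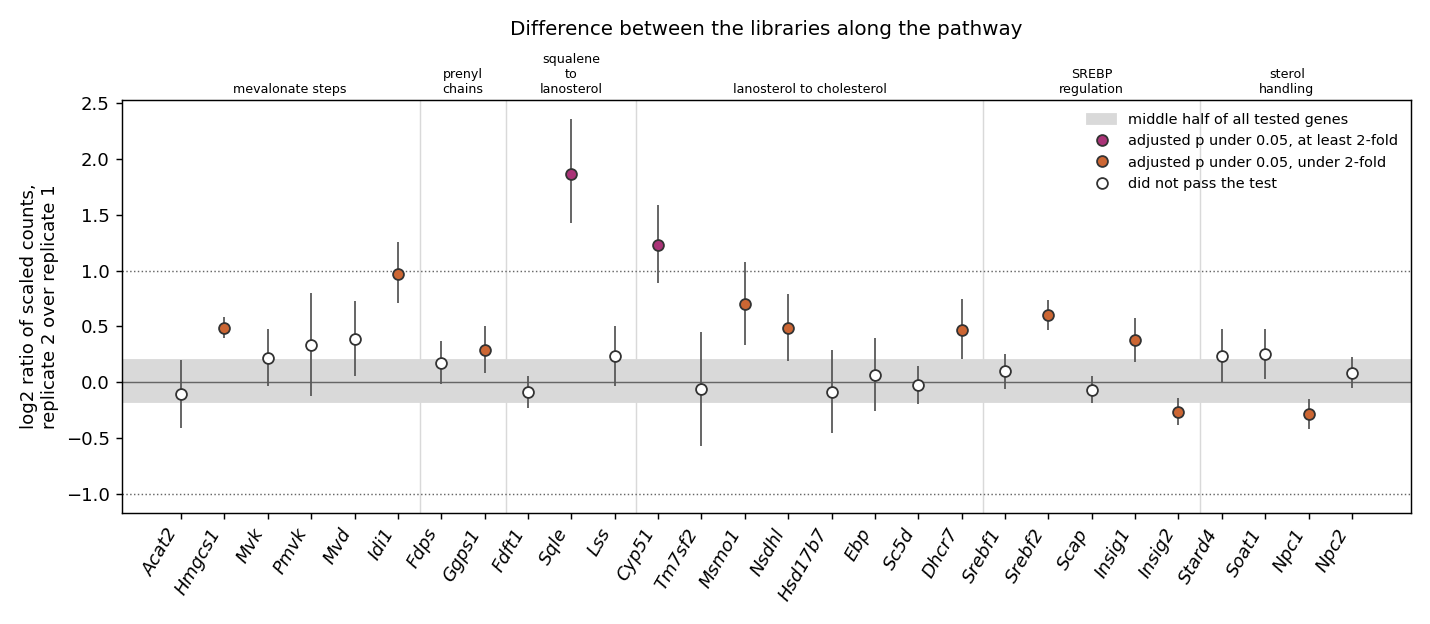
Log2 ratio of TMM-scaled counts, replicate 2 over replicate 1, for each member in pathway order, with 95% Clopper-Pearson intervals, a grey band for the middle 50% of all tested genes (-0.18 to 0.2) and dotted lines at 2-fold. Sqle and Cyp51 lie above the upper dotted line, Idi1 lies just under it, and Insig2 and Npc1 lie below the band.

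Of the 6 mevalonate enzymes, Hmgcs1 and Idi1 were higher in replicate 2 and none was lower. Hmgcs1 (ENSMUSG00000093930.2) lies at chr13:119690379-119708260 on the plus strand of mm10. Hmgcs1 had 1395 counts in replicate 1 and 2540 in replicate 2, a log2 ratio of 0.49 (95% interval 0.39 to 0.58), with an adjusted p of 2.40e-23 in the exact binomial test. Its TPM intervals did not overlap between the libraries. Idi1 (ENSMUSG00000058258.14) lies at chr13:8885501-8892451 on the plus strand. Idi1, which isomerises isopentenyl diphosphate, had 157 and 401 counts and 1.9 and 4.43 TPM. Its log2 ratio was 0.97 (0.71 to 1.25), with an adjusted p of 1.40e-12 in the exact binomial test. Idi1 shares reads with other loci, as the deposited uncertainty of its count was 3.88% and 1.94% of the count, so its counts depend on how such reads were divided.

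The other mevalonate enzymes did not pass the test. Acat2, which joins 2 acetyl-CoA, had 169 and 204 counts, a log2 ratio of -0.11. Mvk, mevalonate kinase, had 218 and 330 counts, a ratio of 0.22. Pmvk, the following kinase, had 66 and 108 counts, a ratio of 0.33 with the wide interval -0.12 to 0.80. Mvd, the decarboxylase, had 120 and 204 counts, a ratio of 0.39 (0.06 to 0.72) and an adjusted p of 0.0647 in the exact binomial test. Mvd overlaps Gm20388 on the opposite strand, which held 2.46 and 366 counts, and the use of strand in the counting is not stated. The 6 enzymes together summed to 30.1 and 45.2 TPM.

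Of the 2 prenyl chain enzymes, 1 passed the test. Ggps1, which makes geranylgeranyl diphosphate for the anchoring of Rab proteins, had 296 and 471 counts, a log2 ratio of 0.29 (0.08 to 0.51). It passed the exact binomial test with an adjusted p of 0.0231. Its TPM was 4.28 and 8.18, a wider gap than that of its counts, and the effective length, by which counts are divided to give TPM, was 2456 and 1772 bases. Fdps, which makes farnesyl diphosphate, had 375 and 551 counts, a ratio of 0.18 (-0.02 to 0.37), and did not pass. The difference between these ratios was not tested. Ggps1 overlaps Arid4b on the opposite strand, which held 777 and 864 counts.

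In the squalene steps, the middle of 3 enzymes passed the test. Sqle (ENSMUSG00000022351.14) lies at chr15:59315077-59331192 on the plus strand. Sqle had 48 counts in replicate 1 and 229 in replicate 2, a log2 ratio of 1.87 (1.42 to 2.36), or 3.65-fold. Its adjusted p in the exact binomial test was 6.55e-19, and 99.6% of tested genes had a lower ratio. The libraries' TPM intervals, 0.51 to 0.89 and 2.31 to 3.00, did not overlap, and a second deposited quantification of the same reads, called direct below, gave 0.85 and 3.1 TPM. Fdft1, squalene synthase, stood before it at 727 and 888 counts, a ratio of -0.09. Lss, lanosterol synthase, stood after it at 193 and 295 counts, a ratio of 0.23. Neither passed the test. Fdft1 overlaps Ctsb on the opposite strand, which held 6696 and 7190 counts.

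From lanosterol to cholesterol, 4 of 8 enzymes were higher in replicate 2 and none was lower. Cyp51 (ENSMUSG00000001467.5) lies at chr5:4081145-4104746 on the minus strand. Cyp51, the lanosterol demethylase, had 93 and 283 counts, a log2 ratio of 1.22 (0.89 to 1.58), or 2.34-fold, with an adjusted p of 7.57e-13 in the exact binomial test. Its TPM of 1.29 and 2.27 differed less than its counts, and its effective length was 2565 bases in replicate 1 and 3832 in replicate 2. Direct quantification gave it 1.71 and 3.74 TPM. Cyp51 also overlaps Akap9 on the opposite strand, with 3751 and 4416 counts.

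Msmo1, the methyl oxidase of the demethylation complex, had 91 and 192 counts, a ratio of 0.70 (0.33 to 1.08), with an adjusted p of 6.63e-04 in the exact binomial test. Its partner Nsdhl, the decarboxylating dehydrogenase, had 145 and 264 counts, a ratio of 0.48 (0.19 to 0.79), with an adjusted p of 0.00454 in the exact binomial test. That call was lost in the direct quantification, where the ratio was 0.36. Dhcr7, which reduces 7-dehydrocholesterol, had 183 and 330 counts, a ratio of 0.47 (0.21 to 0.74), with an adjusted p of 0.00183 in the exact binomial test.

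The remaining 4 enzymes had ratios between -0.09 and 0.07. Hsd17b7 had 112 and 137 counts. Tm7sf2, a sterol reductase, had 61.3 and 76 counts and shared reads, with an uncertainty of 6.72% and 3.92% of its count. It overlaps Vps51 on the same strand, which held 384 and 494 counts. Ebp, a sterol isomerase, had 136 and 185 counts. Sc5d, a desaturase, had 518 and 662 counts and the narrowest interval of these, -0.19 to 0.14.

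Among the regulators, Srebf2 and Insig1 were higher in replicate 2, Insig2 was lower, and Srebf1 and Scap did not pass. Srebf2 (ENSMUSG00000022463.8) lies at chr15:82147181-82205379 on the plus strand. Srebf2, whose product acts chiefly on sterol genes, had 699 and 1375 counts, and 6.28 and 11.18 TPM with intervals that did not overlap. Its log2 ratio was 0.60 (0.47 to 0.73), with an adjusted p of 1.98e-18 in the exact binomial test. Srebf1, whose products act chiefly on fatty acid genes, had 587 and 816 counts, a ratio of 0.10 (-0.06 to 0.25). The level of Srebf2 relative to Srebf1 was -0.54 and -0.09 on the log2 TPM scale, and the intervals overlapped. Direct quantification gave -0.70 and 0.14, so the order of these genes was not settled. Srebf1 overlaps Rai1 on the opposite strand, which held 1004 and 1340 counts.

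Scap, the sterol-sensing escort, had 969 and 1203 counts and a ratio of -0.07 (-0.19 to 0.06). Insig1, itself a known SREBP target, had 333 and 562 counts, a ratio of 0.38 (0.18 to 0.58), with an adjusted p of 8.66e-04 in the exact binomial test. Insig2 (ENSMUSG00000003721.14) lies at chr1:121304353-121332589 on the minus strand. Insig2 had 1101 and 1192 counts, a ratio of -0.26 (-0.38 to -0.14), with an adjusted p of 9.51e-05 in the exact binomial test. Its TPM was nearly equal in the libraries, and its call was lost under total-count scaling (-0.13) and spike-in scaling (-0.04). Insig2 exceeded Insig1 by 2.15 and 1.71 on the log2 TPM scale (1.93 ± 0.32, SD, n = 2), beyond the intervals in both libraries.

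Of the 4 genes that store or move sterols, 0 were higher and 1 was lower. Npc1, the membrane protein of lysosomal cholesterol export, had 864 and 922 counts, a log2 ratio of -0.28 (-0.42 to -0.15), with an adjusted p of 2.27e-04 in the exact binomial test. This call too was lost under total-count scaling (-0.15) and spike-in scaling (-0.06). Npc2, its soluble partner, had 726 and 1002 counts and a ratio of 0.09. Stard4, a carrier of free sterol, had 241 and 369 counts and a ratio of 0.24. Soat1, which esterifies cholesterol for storage, had 266 and 412 counts and a ratio of 0.25. Stard4 and Soat1 did not pass here but did in the direct quantification, at 0.31 and 0.28. Npc1 overlaps Rmc1 on the opposite strand, which held 279 and 339 counts.

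Of 8 pairs of members compared for level, 5 were separated by the intervals in both libraries. Besides the Insig pair, Hmgcs1 exceeded Acat2 by 2.67 ± 0.37 on the log2 TPM scale (SD, n = 2). Against Ggps1, at the branch toward geranylgeranyl chains, Fdft1 was higher by 1.25 ± 0.59 and Fdps by 1.15 ± 0.40 (SD, n = 2). These are levels of whole genes. Coding transcripts held only 58.4% and 57.6% of the transcript TPM of Fdft1, beside 84.6% and 100% of that of Ggps1. Soat1 exceeded Stard4 by 0.65 ± 0.10 (SD, n = 2), although direct quantification gave 1.29 and 0.13. Npc2 over Npc1 (0.45 ± 0.39) and Cyp51 over Lss (-0.91 ± 0.48, both SD, n = 2) were not separated.

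The most abundant transcript by TPM was the same in both libraries for 24 of 28 members, and was protein-coding in both for 25. Both libraries and both quantifications named the same transcript for only 15. For Hmgcs1 the transcript table put 12.61 and 18.44 TPM on Hmgcs1-202 and 2.21 and 5.07 on Hmgcs1-201. The direct quantification put 1.99 and 4.05 on the former and 17.7 and 26.79 on the latter, so which of these was used was not settled.

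Some members carried many counts on transcripts that code for no protein. In Lss, 51.1% and 58% of counts were on coding transcripts, and 44.4% and 38.7% on transcripts with a retained intron. Its leading transcript by TPM, the non-coding Lss-202, rested on 8.84 and 9.97 counts. In Msmo1 the coding share was 59.8% and 77.3%. The coding Msmo1-201 had 52.9 and 145 counts, and the non-coding Msmo1-204 had 25.6 and 6.99. In Cyp51, 8.43 counts on the retained-intron Cyp51-204 held 39.14% of the gene's transcript TPM in replicate 1 and 0% in replicate 2. The Dhcr7 counts divided differently between the libraries as well. Dhcr7-202 had 68.8 and 235 counts, whereas Dhcr7-201 had 85.5 and 74.1. The direct quantification put Dhcr7-202 first in both libraries.

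**Figure D3:**
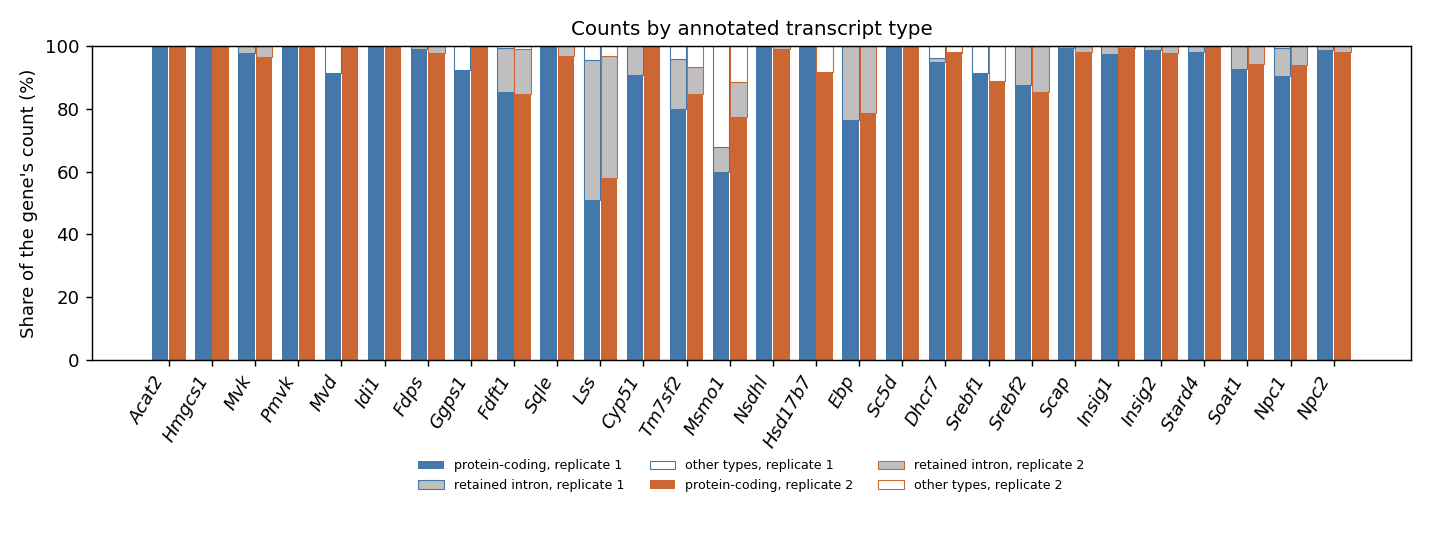
Share of each member's expected count, in percent, on protein-coding (filled), retained-intron (grey) and other (white) transcripts in replicate 1 (blue) and replicate 2 (orange). Lss and Msmo1 have the lowest coding shares, at 51.1% and 59.8% in replicate 1.

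Srebf1 has alternative first exons, which give the SREBP-1a and SREBP-1c forms. Of its RefSeq start sites on the minus strand of chromosome 11, that at 60220627 had 70.5% and 76.2% of the gene's counts on transcripts starting within 100 bases. The site at 60210471 had 10.8% and 13.4%, and that at 60222581 had 2.71% and 3.29%. The first of these led in both libraries and also in the direct quantification, with 3.84 and 4.75 TPM beside 2.41 and 2.51 for the second. The tables do not tie these sites to the named forms. Insig2 was read mostly from the start at 121328024 on chromosome 1, with 92.1% and 91.4% of its counts.

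Other genes of sterol and lipid metabolism were counted in 5 further lists. Beside these counts, 14.8% of all tested genes were higher and 16.7% lower under TMM. Those shares were 29.8% and 8.84% under total counts, and 43.8% and 6.05% under spike-ins. Of 9 genes that carry SREBP to the Golgi, cut it or act on its partners, 2 were higher and 2 lower in replicate 2. That is 22.2% each way, with a median log2 ratio of 0.05. Total-count scaling gave 5 higher (55.6%) and 1 lower (11.1%). Spike-in scaling gave 7 higher (77.8%) and 0 lower, with a median of 0.28, beside 0.23 for all tested genes. Sec23a of the vesicle coat had a ratio of 0.05, and Mbtps1, the protease that first cuts SREBP, had -0.01.

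Of 15 genes of fatty acid synthesis and glycerolipid assembly, the latter being Gpam and Lpin1, 8 were higher and 4 lower, with a median of 0.28. Elovl6, which lengthens fatty acids, had 108 and 371 counts, a log2 ratio of 1.40 and an adjusted p of 2.63e-20 in the exact binomial test. Lpin1, a phosphatidate phosphatase, had 5770 and 3401 counts, a ratio of -1.14. The abundant Gpam and Acacb were lower as well, at -0.44 and -0.65, and so was Acss2 at -0.42. Besides Elovl6, the higher genes were Scd2 (0.80), Scd1 (0.71), Fads2 (0.60), Fads1 (0.52), Acly (0.425), Acaca (0.35) and Fasn (0.28). Total-count scaling gave 9 higher and 4 lower, and spike-in scaling 10 higher and 4 lower. Under spike-ins Lpin1 no longer passed 2-fold, whereas Scd2 did.

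Of 8 genes of the liver X receptor, which answers to oxysterols, and of sterol efflux, 0 were higher and 5 were lower, with a median of -0.33. Nr1h3, which encodes a form of the receptor, had 207 and 130 counts, a ratio of -1.05 and an adjusted p of 5.03e-10 in the exact binomial test. Nr1h2, which encodes the other form, had a ratio of -0.09 and did not pass. Its level was higher, at 11.29 and 13.73 TPM beside 6.36 and 2.49 for Nr1h3. The dimer partners Rxra and Rxrb had ratios of -0.17 and -0.15. Under spike-in scaling 4 of the 8 lay above 0 and 3 were called lower. Of 11 tested genes of sterol transport and oxidation, 1 was higher and 9 lower, with a median of -0.42. Cyp27a1, which makes an oxysterol, had 392 and 252 counts, a ratio of -1.01. Scarb1, a lipoprotein receptor, had 2756 and 2050 counts, a ratio of -0.80. Osbp had -0.14, and Lrp1, the 1 gene that was higher, had 0.22. Under spike-in scaling 2 of the 11 were higher and 5 lower.

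Of 12 genes that use isoprenoids, 1 was higher and 6 lower, with a median of -0.14. Rabggtb and Fnta, subunits of prenyltransferases, had ratios of -0.15 and -0.04, and Coq2 of ubiquinone synthesis had -0.26. Under total-count scaling 1 was higher and 0 lower, and under spike-in scaling 3 were higher and 0 lower, so the direction of this list rests on the scaling.

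Markers of other cells were compared between the same libraries, where 14.8% of all tested genes were higher and 16.7% lower under TMM. All 10 Schwann cell markers were higher in replicate 2 under TMM, total-count and spike-in scaling, with a median log2 ratio of 0.94 and a summed level of 284 and 733 TPM. Mbp, a protein of the myelin sheath, had 52.8 and 142.9 TPM. Pmp22 and Prx also passed 2-fold. Of 7 fibro-adipogenic markers, 5 were higher, with a median log2 ratio of 0.19 and a sum of 2150 and 3420 TPM. Most of that sum came from the collagen genes Col1a1, at 1127.55 and 1958.37 TPM, and Col3a1, at 759.49 and 1134.97 TPM. Dcn, Lum and Pi16 were higher at 0.18, 0.19 and 0.23, and Pdgfra and Ly6a, at -0.07 and -0.04, did not pass.

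Adipocyte markers, with 1 of 8 higher and 3 lower, summed to 331 and 233 TPM. Most of that sum came from Fabp4, at 158.52 and 122.2 TPM, and Pnpla2, at 153.39 and 91.48 TPM. These were lower at -0.57 and -0.92, as was Lipe at -0.76, whereas Plin1 was higher at 0.745. Adipoq, Cfd, Lep and Cidec, at 0.40, 0.04, -0.07 and -0.28, did not pass. Macrophage markers summed to 53.4 and 62.8 TPM with 1 of 7 higher (14.3%), near the 14.8% of all tested genes. Endothelial markers summed to 184 and 176 TPM with 4 of 5 lower. Under spike-in scaling 3 of 7 macrophage markers were higher (42.9%), near the 43.8% of all tested genes. Of the endothelial markers 1 was higher and 2 were lower under that scaling. With DESeq2 size factors or the direct quantification 0 of 7 macrophage markers were higher. The part of these differences in the ratios of the sterol genes was not tested.

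**Figure D4:**
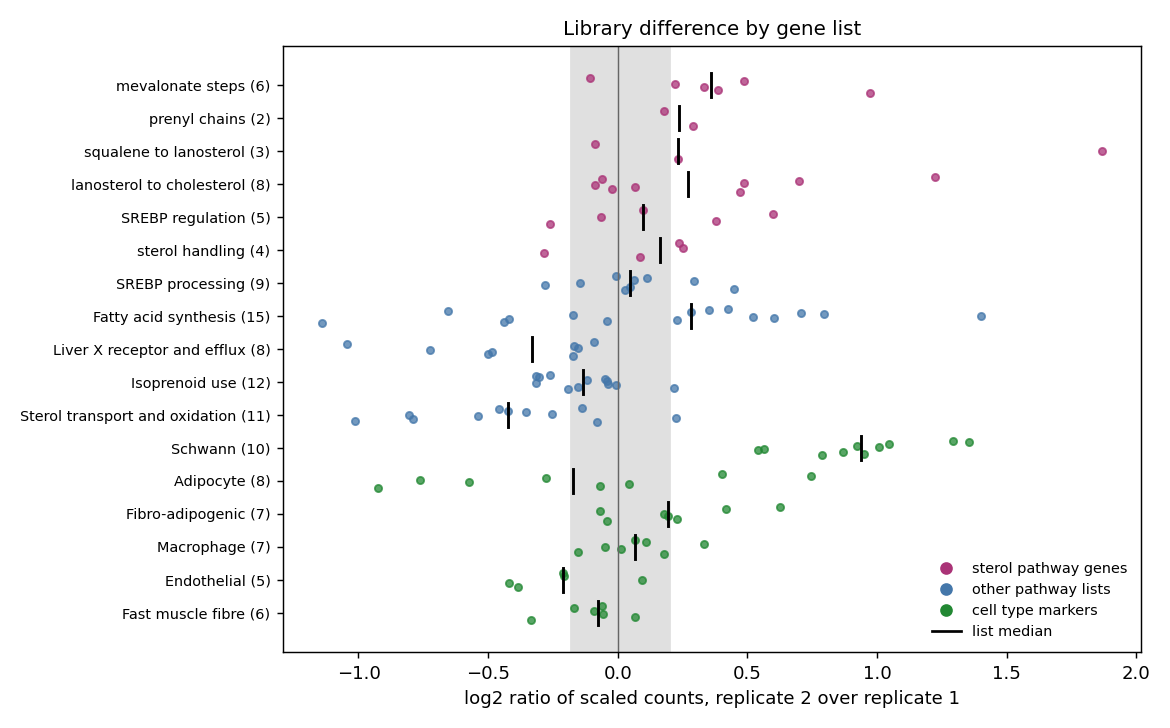
Log2 ratio of TMM-scaled counts, replicate 2 over replicate 1, for each tested gene (points) by step of the sterol pathway (purple), other pathway list (blue) and cell type marker list (green), with black bars for list medians, tested genes per list in brackets and a grey band for the middle 50% of all tested genes. The Schwann list has a median of 0.94, and the 4 groups of route enzymes have medians between 0.23 and 0.36. Hepatocyte markers are not drawn.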

How the data were processed

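Per the labels, 300 ng of total RNA per library from 14-day gastrocnemius was sequenced with spike-ins. Notes with the series name mm10 and GENCODE M21. Aligner and quantifiers were not given in the sources used here. For each library the authors deposited gene and transcript tables of expected counts, TPM, posterior mean TPM, interval bounds (a signal), and isoform percent, per the file headers. Estimated counts and TPM of a second deposited table per transcript were added up over each gene (the direct quantification). The reference is of C57BL/6J, so loss of CAST/EiJ reads was possible and not measured.

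Expected counts were rounded. Library sizes were scaled with TMM (factors 0.954 and 1.05, edgeR 4.0.16). Spike-ins held 285877 and 317175 counts. Another 26248 rows named only by a number, with 1 and 0 counts, and a phiX row with 1 and 0 were left out. The 15734 genes whose counts summed to 20 or more entered a two-sided exact binomial test with Benjamini-Hochberg adjustment, since 1 library per side leaves edgeR's quasi-likelihood test no residual degrees of freedom. A gene was higher or lower at an adjusted p under 0.05, and was called at 2-fold as well where stated. Ratios used a prior count of 0.5 and 95% Clopper-Pearson intervals. Reads were taken as shared where the deposited uncertainty passed 1% of a count. Counts for this comparison were simulated with counting error only (15721 genes, 50 per fold). Of these, 72% of 1.5-fold, 98% of 3-fold and 100% of 4-fold changes passed the test, and 0.058% of unchanged genes. The simulation left out the 15.9% variation between the libraries, so these shares do not give the error rates of the real calls. DESeq2 1.42.0 size factors, total counts, spike-ins, the direct quantification, other filters and folds were alternatives. Other software was R 4.3.3 and Python 3.11.15 with scipy 1.17.1, matplotlib 3.10.9, numpy 2.4.6 and pandas 2.3.3.

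Members, lists and tests were chosen with earlier results of these data known. All 28 members are named, and of each other list the 3 genes of highest mean TPM and those called at 2-fold; some genes the rule takes are not reported here.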

Additional observations from a re-analysis of the deposited data

How the results depend on the processing

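No paired analysis was possible because the series holds 1 group. A library could not be left out of a ratio, as each side has 1. The 2 members called at 2-fold became 5 at 1.5-fold, where 8.07% of all tested genes were called. The 10 members higher in replicate 2 became 18 under total counts and 21 under spike-in scaling, and the 2 lower became 0 under both. Of all tested genes, 14.8% were higher under TMM, 29.8% under total counts and 43.8% under spike-ins. The 8 route enzymes became 14 under spike-in scaling. The 4 genes called in the other pathway lists became 2 under total counts, 2 under spike-ins and 11 at 1.5-fold, alternatives chosen after seeing the data. Direct quantification gave summed levels of 258 TPM for the members and 144 for the route, and TPM over nuclear coding genes gave 377 and 210. Posterior means put Soat1 over Stard4 at 0.80. Sqle and Cyp51 were called under each scaling, in the direct quantification and without the filter, and Idi1 joined them under total counts and spike-ins. The log2 ratios of 6 members that did not pass turned from below to above 0 under total counts and spike-ins respectively: Acat2 (0.029, 0.12), Fdft1 (0.046, 0.14), Tm7sf2 (0.074, 0.17), Hsd17b7 (0.048, 0.14), Sc5d (0.11, 0.20) and Scap (0.07, 0.16), of which Sc5d and Scap passed under spike-ins. The median of the route less that of all genes was 0.27 in the direct quantification, beside 0.29, and scalings cannot move it, since each shifts all genes alike. With 1 library at a time, the sums were 161 to 208 TPM for the members and 87 to 119 for the route, and the log2 level ratios were -0.54 to -0.09 for Srebf2 over Srebf1, 1.71 to 2.15 for Insig2 over Insig1, 0.17 to 0.72 for Npc2 over Npc1, 0.87 to 1.44 for Fdps over Ggps1, 0.83 to 1.67 for Fdft1 over Ggps1, 2.41 to 2.94 for Hmgcs1 over Acat2, -1.26 to -0.57 for Cyp51 over Lss, and 0.58 to 0.72 for Soat1 over Stard4. Depth limits the low members: the median 95% interval of a member's ratio reached 0.25 to either side on the log2 scale.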
